A study of Homo sapiens with 8 samples.

Results

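The nuclear-encoded subunits of mitochondrial complex I were taken as 36 NDUF genes, listed by symbol and matched to gene identifiers among the genes of the deposited tables. All 36 were among the 18242 genes with enough counts to be tested. The 36 fell into 6 catalytic subunits of the matrix arm, 9 accessory subunits of the matrix arm, 9 of the proximal membrane arm, 11 of the distal membrane arm, and the acyl carrier protein NDUFAB1. The cells were BEAS-2B, an established line from human bronchial epithelium. Cultures on collagen-coated inserts were exposed at the air-liquid interface to 1 ppm formaldehyde (FA) or to humidified clean air (CA) for 2 h and recovered for 6 h. Ribosomal RNA was depleted, and part of each RNA pool was sequenced directly (input, IN) while another part was immunoprecipitated with an antibody against 8-oxo-7,8-dihydroguanosine (8-oxoG), an oxidized form of guanosine, before sequencing (pull-down, IP). The 4 groups, CA_IN, FA_IN, CA_IP and FA_IP, held 2 replicate libraries each, called biological duplicates by the submitters for the pull-downs, and the study asked which transcripts were enriched in 8-oxoG after formaldehyde.

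Complex I (NADH:ubiquinone oxidoreductase) is the entry point of electrons from NADH into the respiratory chain. Electrons pass from NADH through a flavin and a chain of iron-sulfur clusters in the matrix arm to ubiquinone, and the membrane arm pumps protons. Its core is made by both genomes, since the pumping subunits are encoded in mitochondrial DNA while the redox subunits are nuclear. The remaining nuclear subunits, called accessory, are mostly small proteins that surround and stabilize the core, and many of their mRNAs are short. Complex I is also a main site of superoxide formation in mitochondria.

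The input libraries held 26152651 to 45144392 expected counts and the pull-down libraries 16883500 to 23658012, and replicates correlated at a Pearson r of 0.992 to 0.994 across genes on the log2 scale. Levels are given below as CPM, counts scaled to the library total corrected by edgeR's TMM factors. All 8 epithelial markers were detected, with summed levels of 4880 to 5780 CPM in CA_IN and 5470 to 6280 CPM in FA_IN, while the ciliated markers FOXJ1 and DNAI1 had at most 7 and 3 counts in an input library. A pull-down value is relative to the TMM-corrected total of its library, so lower means a smaller part of that total than in input. It is not a measured number of 8-oxoG bases. Mitochondrial RNA made up 13.5% to 14.8% of input counts and 9.6% to 11.3% of pull-down counts, and the part of these shifts in the results below was not tested.

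Coding sequences of 4 members are shown because they span the contrast described below: short messages that were lower in the pull-down and one of like size that was not. They come from GENCODE 44 (MANE Select isoforms, GRCh38), 5′ to 3′, in lower case with each guanine in capitals. NDUFB1 (gene at chr14:92116122-92121917, minus strand) and NDUFA1 (chrX:119871832-119876662, plus strand) are whole, with 46 guanines in 177 bases and 63 in 213 bases. NDUFB4 (chr3:120596328-120602507, plus strand) and NDUFB7 (chr19:14566078-14572066, minus strand) are shown over their first 240 coding bases, with 55 and 72 guanines.
NDUFB1: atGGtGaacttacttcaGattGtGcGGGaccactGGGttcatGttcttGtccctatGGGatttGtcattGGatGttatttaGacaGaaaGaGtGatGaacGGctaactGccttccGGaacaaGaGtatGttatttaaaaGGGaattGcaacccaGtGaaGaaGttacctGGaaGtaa
NDUFA1: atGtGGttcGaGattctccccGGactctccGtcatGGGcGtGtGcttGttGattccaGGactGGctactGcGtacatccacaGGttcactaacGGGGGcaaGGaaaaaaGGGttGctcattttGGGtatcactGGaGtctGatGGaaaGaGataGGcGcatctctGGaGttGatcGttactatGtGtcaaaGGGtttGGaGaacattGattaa
NDUFB4: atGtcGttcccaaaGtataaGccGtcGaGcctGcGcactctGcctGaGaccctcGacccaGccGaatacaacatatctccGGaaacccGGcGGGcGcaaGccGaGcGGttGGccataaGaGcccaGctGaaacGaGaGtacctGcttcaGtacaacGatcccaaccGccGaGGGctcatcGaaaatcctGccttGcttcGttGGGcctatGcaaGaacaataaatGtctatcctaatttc
NDUFB7: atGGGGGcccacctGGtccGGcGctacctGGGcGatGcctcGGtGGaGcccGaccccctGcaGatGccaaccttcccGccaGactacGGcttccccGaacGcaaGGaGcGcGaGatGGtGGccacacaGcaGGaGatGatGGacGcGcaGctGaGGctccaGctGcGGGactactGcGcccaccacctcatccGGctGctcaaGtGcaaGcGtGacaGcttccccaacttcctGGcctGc

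Levels in input are compared between genes as TPM, a share of transcripts that is corrected for their length. NDUFS5, an intermembrane space subunit with paired cysteines, was the highest at 204 ± 18.5 TPM (SD, n = 4 input libraries of both treatments). NDUFB1 followed at 120 ± 9.18 TPM and NDUFB9 at 83.0 ± 4.11 TPM. These 3 differed from each other by more than their spread. The lowest were NDUFV3, a peripheral subunit of the NADH-binding module, at 6.25 ± 0.784 TPM, NDUFS7 at 14.2 ± 1.29 TPM and NDUFA5 at 17.8 ± 2.37 TPM. NDUFA5 and NDUFA8, next in order at 18.6 ± 1.98 TPM, did not differ beyond their spread. TPM of the shortest mRNAs rests on a small effective length and is sensitive to it.

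In the pull-down, 11 of the 36 mRNAs were lower than in input in clean air, and the same 11 were lower after formaldehyde. Over all genes tested, 322 (1.77%) were lower in clean air, 268 (1.47%) after formaldehyde and 262 (1.44%) in both. No member was higher, against 27 genes (0.148%) and 6 genes (0.0329%) in all. The median log2FC of the members was -0.18 in clean air and -0.19 after formaldehyde, beside 0.02 and 0.00 over all genes. All 4 pull-down libraries lay below all 4 input libraries for 17 of the 36, against 5.9% of all genes, and above them for 6 of the 36, against 7.76%. The 17 were the 11 lower members and NDUFA11, NDUFA6, NDUFB6, NDUFB5, NDUFA13 and NDUFB3, which were not called. The values formed a continuous range, with NDUFA11 at -0.53 next to NDUFA2 at -0.58 in clean air. Summed over the 11, the level was 611 to 670 CPM in the input libraries and 288 to 346 CPM in the pull-down libraries, while the other 25 summed to 2030 to 2193 CPM and 1969 to 2253 CPM. Without TMM factors, the 36 made up 0.253% to 0.266% of input counts and 0.243% to 0.267% of pull-down counts. By TPM, also without those factors, NDUFA2 held 49.7 to 55.5 in input and 57.5 to 68.2 in pull-down. NDUFV1 held 43.1 to 45.2 and 99.0 to 108 TPM. Members with a log2FC of 0.01 in clean air rose by TPM too. NDUFS1 held 21.3 to 24.8 TPM in input and 41.9 to 50.3 TPM in pull-down, and NDUFS5 held 185 to 229 and 332 to 416 TPM. A rise by TPM alone thus did not set NDUFV1 or NDUFA2 apart from members without a change by CPM. NDUFB4, NDUFA3, NDUFC1 and NDUFC2 were lower in every pull-down library by TPM, and the rest of the 11, NDUFA2 apart, overlapped.

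**Figure D1:**
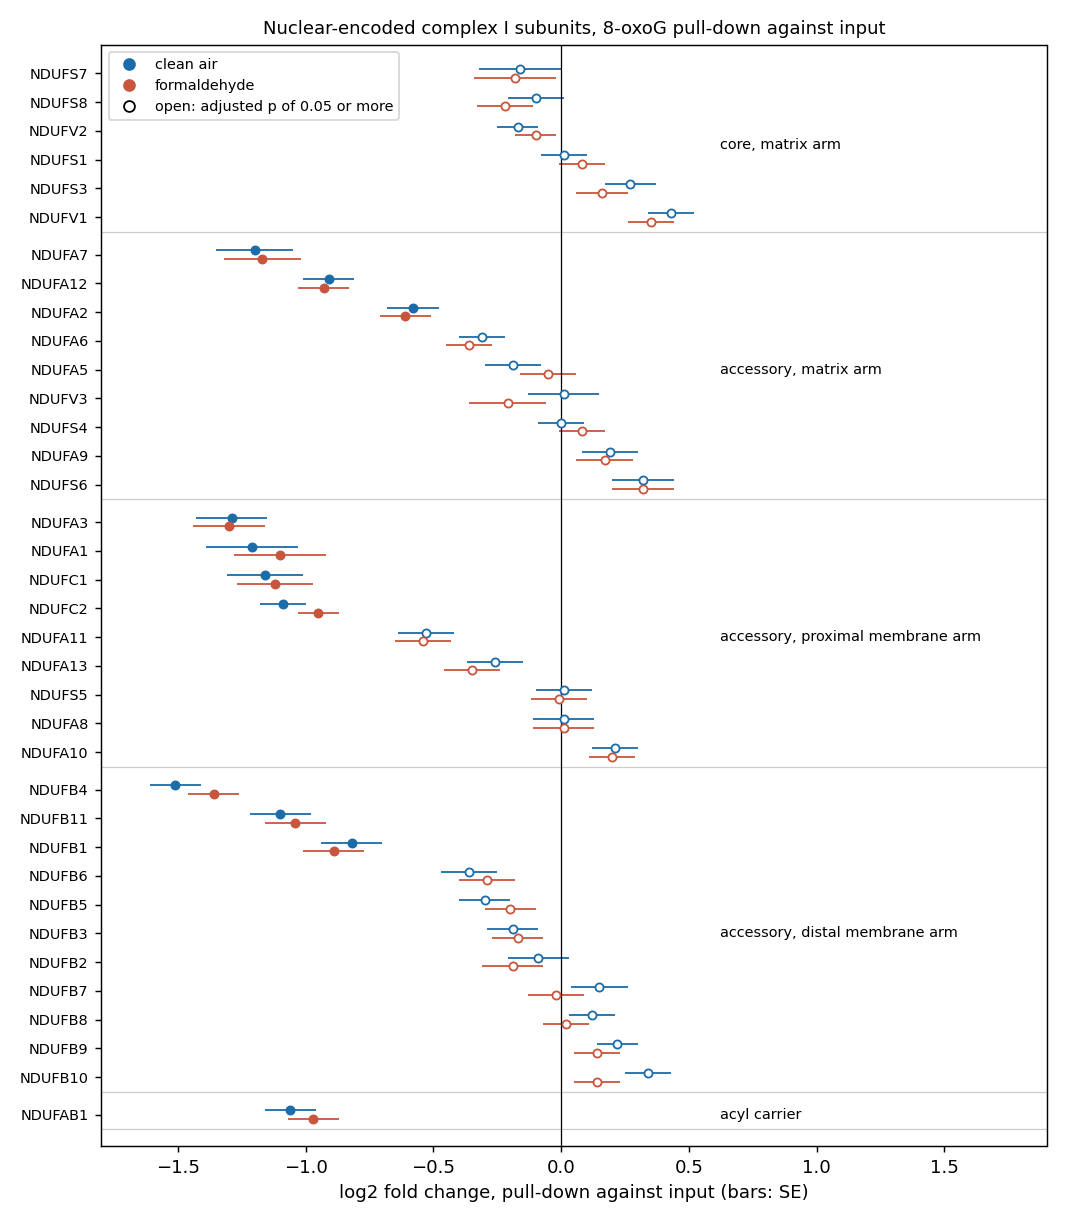
The log2 fold change of pull-down against input (x axis) is plotted for each of the 36 subunits (y axis, by arm), in clean air (blue) and after formaldehyde (red), with bars of 1 SE from edgeR and filled points where the adjusted p was under 0.05. The 11 filled members, which include NDUFAB1 and 10 accessory subunits, sit between -1.51 and -0.58 in clean air, and no core subunit is among them.

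Input and pull-down were split from shared RNA pools, so the comparison was also fitted with the pool as a block, which called many more genes of all kinds. With it, 16 members were lower in clean air, against 5.85% of all genes, and 6 were higher (NDUFV1, NDUFS3, NDUFS6, NDUFA10, NDUFB9 and NDUFB10), against 11.6%. After formaldehyde 15 were lower, against 4.6%, and 2 were higher (NDUFV1 and NDUFS6), against 5.45%. A block for the replicate number gave 15 lower members, against 3.87%, and 3 higher (NDUFV1, NDUFS6 and NDUFB10), against 6.77%, in clean air. After formaldehyde it gave 15 lower, against 3.21%, and 1 higher (NDUFV1), against 2.01%. The 11 were among the lower members under both blocks. Scaling by library size in place of TMM raised the median of all genes to 0.16 in clean air and 0.17 after formaldehyde. On that scale 11 members were lower and 6 higher in clean air, beside 336 lower and 821 higher genes in all, and 11 were lower and 1 higher after formaldehyde, beside 243 lower and 318 higher. The count after formaldehyde rested partly on single libraries: it was 6 without FA_IN replicate 1, with NDUFA1, NDUFA2, NDUFA7, NDUFB1 and NDUFC1 no longer called, and 7 without FA_IP replicate 1, with NDUFA1, NDUFA2, NDUFA7 and NDUFB1 no longer called.

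The 6 catalytic subunits carry the redox centres. NDUFV1 binds NADH and the flavin, NDUFV2, NDUFS1, NDUFS7 and NDUFS8 hold iron-sulfur clusters, and NDUFS3 is part of the module next to the quinone site. None of the 6 was called in either treatment, and their median log2FC was -0.04 in clean air and -0.01 after formaldehyde. NDUFV1 held 142 and 140 CPM in CA_IN, 160 and 143 CPM in FA_IN, 181 and 198 CPM in CA_IP, and 190 and 196 CPM in FA_IP. All 4 of its pull-down libraries were above all 4 input libraries, and its log2FC was 0.43 ± 0.09 (SE, edgeR adjusted p = 0.0503) in clean air and 0.35 ± 0.09 (adjusted p = 0.144) after formaldehyde, just outside the threshold in clean air. NDUFS3 had 45.6 and 44 CPM in CA_IN, 50.2 and 50.2 CPM in FA_IN, 54.9 and 53.2 CPM in CA_IP, and 52.9 and 59.3 CPM in FA_IP. Its groups also did not overlap, with a log2FC of 0.27 ± 0.10 (adjusted p = 0.272) and 0.16 ± 0.10 (adjusted p = 0.755). NDUFS1, the longest mRNA of the 36 at 2543 nt, held 153 and 157 CPM in CA_IN, 148 and 165 CPM in FA_IN, 154 and 158 CPM in CA_IP, and 157 and 173 CPM in FA_IP. Its libraries overlapped between input and pull-down, and the log2FC was 0.01 ± 0.09 (adjusted p = 0.975) and 0.08 ± 0.09 (adjusted p = 0.943). NDUFV2 held 92.7 and 100 CPM in CA_IN, 96.2 and 99.0 CPM in FA_IN, 83.3 and 87.8 CPM in CA_IP, and 89.5 and 93.3 CPM in FA_IP. NDUFS7 held 27.0 and 28.0 CPM in CA_IN, 31.4 and 30.9 CPM in FA_IN, 20.1 and 29.3 CPM in CA_IP, and 27.2 and 28.0 CPM in FA_IP. NDUFS8 held 69.6 and 66.8 CPM in CA_IN, 79.7 and 73.2 CPM in FA_IN, 58.2 and 69.0 CPM in CA_IP, and 62.7 and 68.6 CPM in FA_IP. For these 3 the input and pull-down libraries overlapped, and the log2FC lay from -0.22 to -0.10 over both treatments, with adjusted p of 0.462 or more.

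Of the 9 accessory subunits of the matrix arm, 3 were lower and 6 were not called in either treatment, with medians of -0.19 and -0.21. NDUFA7 (chr19:8308768-8321375, minus strand), a small subunit near the quinone module, held 29.5 and 24.5 CPM in CA_IN, 32.2 and 29.7 CPM in FA_IN, 10.7 and 12.7 CPM in CA_IP, and 12.9 and 14.5 CPM in FA_IP. It was 2.3-fold and 2.25-fold lower; its log2FC was -1.20 ± 0.15 (SE, edgeR adjusted p = 0.0032) in clean air and -1.17 ± 0.15 (adjusted p = 0.00459) after formaldehyde. NDUFA12 (chr12:94895297-95003748, minus strand), which takes part in attaching the NADH-binding module, held 65.7 and 61.0 CPM in CA_IN, 68.0 and 68.7 CPM in FA_IN, 31.8 and 35.7 CPM in CA_IP, and 35.0 and 36.8 CPM in FA_IP. Its log2FC was -0.91 ± 0.10 (SE, edgeR adjusted p = 0.00159) in clean air and -0.93 ± 0.10 (adjusted p = 0.00189) after formaldehyde. NDUFA2 (chr5:140638740-140647771, minus strand), which has a thioredoxin-like fold, was the smallest of the 11 reductions, with 79.8 and 82.8 CPM in CA_IN, 87.4 and 85.5 CPM in FA_IN, 51.7 and 57.3 CPM in CA_IP, and 53.4 and 59.7 CPM in FA_IP. Its log2FC was -0.58 ± 0.10 (SE, edgeR adjusted p = 0.0181) in clean air and -0.61 ± 0.10 (adjusted p = 0.0152) after formaldehyde, and its pull-down and input libraries did not overlap. The others ranged from -0.31 (NDUFA6) to 0.32 (NDUFS6) in clean air. NDUFS6, a zinc-binding subunit with one of the most guanine-rich coding sequences of the 36, held 62.5 and 58.0 CPM in CA_IN, 65.3 and 66.5 CPM in FA_IN, 74.4 and 76.4 CPM in CA_IP, and 72.8 and 91.8 CPM in FA_IP. All of its pull-down libraries were above its input libraries, but the change did not pass (adjusted p = 0.281 and 0.396).

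NDUFV3 and NDUFA5, with NDUFS1, had the longest mRNAs. NDUFV3 (2209 nt) held 40.6 and 32.1 CPM in CA_IN, 36.5 and 33.9 CPM in FA_IN, 39.9 and 33.2 CPM in CA_IP, and 31.5 and 29.3 CPM in FA_IP, and NDUFA5 (1585 nt) held 65.6 and 73.1 CPM in CA_IN, 65.5 and 75.3 CPM in FA_IN, 59.6 and 62.0 CPM in CA_IP, and 65.2 and 71.3 CPM in FA_IP. Neither passed the test: the log2FC of NDUFV3 was 0.01 ± 0.14 and -0.21 ± 0.15, and that of NDUFA5 was -0.19 ± 0.11 and -0.05 ± 0.11, with adjusted p of 0.550 or more in both treatments.

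The proximal membrane arm had the lowest median of the groups with more than 1 member, at -0.53 in clean air and -0.54 after formaldehyde, with 4 of 9 lower and 5 not called. NDUFA3 (chr19:54102728-54109257, plus strand), a subunit with a single membrane helix and one of the 3 shortest mRNAs (400 nt), held 18.5 and 16.9 CPM in CA_IN, 18.9 and 18 CPM in FA_IN, 6.89 and 7.62 CPM in CA_IP, and 7.41 and 7.56 CPM in FA_IP. It was 2.44-fold and 2.46-fold lower; its log2FC was -1.29 ± 0.14 (SE, edgeR adjusted p = 0.00127) in clean air and -1.30 ± 0.14 (adjusted p = 0.00162) after formaldehyde. NDUFA1, another single-helix subunit, held 55.5 and 53.9 CPM in CA_IN, 57.0 and 56.4 CPM in FA_IN, 21.1 and 26.4 CPM in CA_IP, and 21.5 and 31.2 CPM in FA_IP. Its log2FC was -1.21 ± 0.18 (SE, edgeR adjusted p = 0.00799) in clean air and -1.10 ± 0.18 (adjusted p = 0.0152) after formaldehyde, with the largest SE of the 11. NDUFC1 (chr4:139266880-139302551, minus strand) and NDUFC2 (chr11:78068297-78079862, minus strand) are neighbours at the membrane arm. NDUFC1 held 37.8 and 30.6 CPM in CA_IN, 42.8 and 36.5 CPM in FA_IN, 15.6 and 15.0 CPM in CA_IP, and 19.5 and 17.1 CPM in FA_IP. Its log2FC was -1.16 ± 0.15 (SE, edgeR adjusted p = 0.00341) in clean air and -1.12 ± 0.15 (adjusted p = 0.00547) after formaldehyde. NDUFC2 was the most abundant of the 11 by CPM, with 104 and 103 CPM in CA_IN, 112 and 107 CPM in FA_IN, 47.5 and 50.2 CPM in CA_IP, and 58.2 and 54.9 CPM in FA_IP. Its log2FC was -1.09 ± 0.09 (SE, edgeR adjusted p = 0.000285) in clean air and -0.95 ± 0.08 (adjusted p = 0.000656) after formaldehyde.

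The input and pull-down libraries did not overlap for any of these 4. NDUFA11, a multi-helix membrane subunit, fell just outside the threshold, with 68.7 and 63.4 CPM in CA_IN, 77.5 and 65.8 CPM in FA_IN, 43.7 and 47.9 CPM in CA_IP, and 49.6 and 49.1 CPM in FA_IP. Its log2FC was -0.53 ± 0.11 (SE, edgeR adjusted p = 0.0551) in clean air and -0.54 ± 0.11 (adjusted p = 0.0617) after formaldehyde. NDUFS5, with 180 and 190 CPM in CA_IN, 190 and 205 CPM in FA_IN, 173 and 199 CPM in CA_IP, and 176 and 216 CPM in FA_IP, is short (544 nt) and was the most abundant per length, and its input and pull-down libraries overlapped. Its log2FC was 0.01 ± 0.11 (adjusted p = 0.987) and -0.01 ± 0.11 (adjusted p = 0.997). NDUFA13, NDUFA8 and NDUFA10 had values from -0.35 to 0.21, with adjusted p of 0.283 or more.

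In the distal membrane arm 3 of 11 were lower and 8 were not called, with a median of -0.19 in each treatment. NDUFB4, a small membrane subunit, had the largest reduction of the 36, with 60.3 and 64.4 CPM in CA_IN, 66.1 and 65.6 CPM in FA_IN, 21.1 and 22.8 CPM in CA_IP, and 24.5 and 26.9 CPM in FA_IP. It was 2.84-fold and 2.56-fold lower; its log2FC was -1.51 ± 0.10 (SE, edgeR adjusted p = 0.00016) in clean air and -1.36 ± 0.10 (adjusted p = 0.000348) after formaldehyde. NDUFB11 (chrX:47142071-47145466, minus strand), an X-linked subunit, held 72.5 and 70.0 CPM in CA_IN, 75.4 and 71.3 CPM in FA_IN, 29.8 and 36.9 CPM in CA_IP, and 36.1 and 35.3 CPM in FA_IP. Its log2FC was -1.10 ± 0.12 (SE, edgeR adjusted p = 0.00123) in clean air and -1.04 ± 0.12 (adjusted p = 0.0021) after formaldehyde. NDUFB1, the shortest mRNA of the 36 at 347 nt, held 45.4 and 43.8 CPM in CA_IN, 47.1 and 46.4 CPM in FA_IN, 24.5 and 26.2 CPM in CA_IP, and 22.7 and 27.7 CPM in FA_IP. Its log2FC was -0.82 ± 0.12 (SE, edgeR adjusted p = 0.0085) in clean air and -0.89 ± 0.12 (adjusted p = 0.00626) after formaldehyde, so the shortest message was not the most reduced.

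Other distal subunits of like size were not called. NDUFB10, which has paired cysteines and is imported by the intermembrane space redox relay, held 66.4 and 62.0 CPM in CA_IN, 73.1 and 70.8 CPM in FA_IN, 77.5 and 84.9 CPM in CA_IP, and 75.9 and 83.0 CPM in FA_IP. Its log2FC was 0.34 ± 0.09 (SE, edgeR adjusted p = 0.146) in clean air and 0.14 ± 0.09 (adjusted p = 0.8) after formaldehyde. NDUFB9, an LYR-family subunit that binds the acyl carrier protein, held 116 and 113 CPM in CA_IN, 122 and 119 CPM in FA_IN, 128 and 138 CPM in CA_IP, and 126 and 139 CPM in FA_IP. Its log2FC was 0.22 ± 0.08 (SE, edgeR adjusted p = 0.326) in clean air and 0.14 ± 0.09 (adjusted p = 0.78) after formaldehyde. Both had all pull-down libraries above all input libraries. NDUFB2 (508 nt), the third of the shortest mRNAs, held 59.9 and 55.2 CPM in CA_IN, 65.4 and 59.2 CPM in FA_IN, 49.7 and 58.7 CPM in CA_IP, and 51.0 and 58.1 CPM in FA_IP, with overlapping libraries and adjusted p of 0.849 and 0.782. NDUFB7, of 531 nt, had a log2FC of 0.15 ± 0.11 and -0.02 ± 0.11 (adjusted p = 0.658 and 0.997), and NDUFB8, of 666 nt, of 0.12 ± 0.09 and 0.02 ± 0.09.

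NDUFAB1 (chr16:23581014-23596316, minus strand), the mitochondrial acyl carrier protein, also serves fatty acid and lipoate synthesis. It held 60.3 and 60.3 CPM in CA_IN, 63.3 and 64.7 CPM in FA_IN, 27.5 and 30.6 CPM in CA_IP, and 30.8 and 34.4 CPM in FA_IP. Its log2FC was -1.06 ± 0.10 (SE, edgeR adjusted p = 0.000828) in clean air and -0.97 ± 0.10 (adjusted p = 0.00168) after formaldehyde, and the libraries did not overlap.

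**Figure D2:**
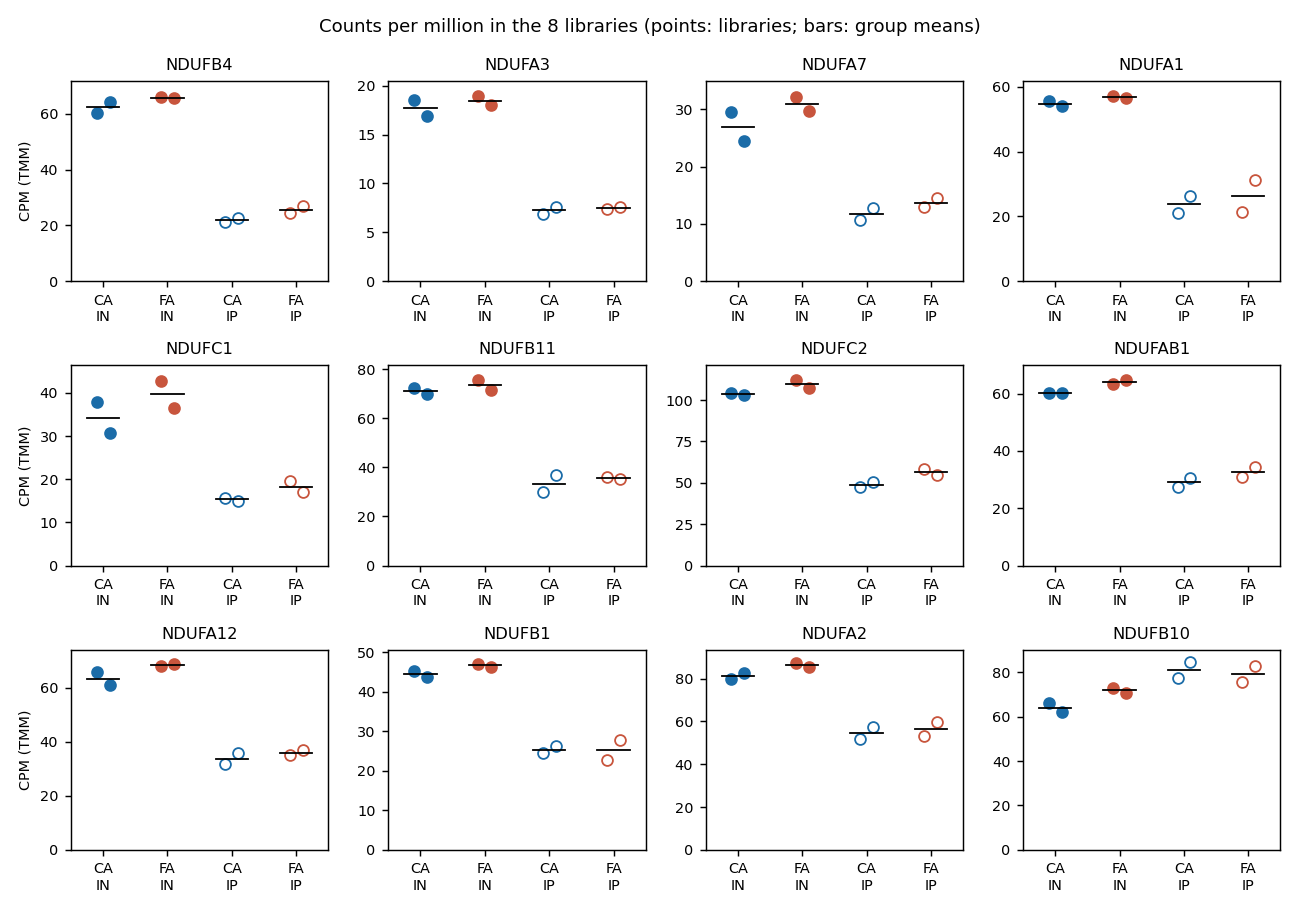
CPM (y axis, TMM-scaled, from 0) are plotted for each of the 8 libraries (points, 2 per group; bars are group means; CA clean air, FA formaldehyde, IN input filled, IP pull-down open) for the 11 lower subunits and NDUFB10. For the 11 every pull-down point is below every input point, as with NDUFB4 at 21.1 to 26.9 against 60.3 to 66.1 CPM, while NDUFB10 lies at 75.9 to 84.9 against 62.0 to 73.1 CPM.

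The design compared the pull-down with mRNA length, taken as the RSEM isoform length weighted by input TPM. Of the 17 members under 750 nt, 8 were lower in both treatments, against 30% of the 424 protein-coding genes of that class. Of the 10 of 750 to 1000 nt, 2 were lower (NDUFA1 and NDUFA2), against 5.01% of the class. Of the 7 of 1000 to 2000 nt, 1 was lower (NDUFB11), against 0.442%, and of the 2 of 2000 nt or more none was, against 0.061%. The classes of NDUFA1, NDUFA2 and NDUFB11 depend on the annotation release, as given below. The median log2FC of members under 750 nt was -0.53 in clean air and -0.54 after formaldehyde, beside -0.49 and -0.51 for all protein-coding genes of the class. The class under 750 nt had the lowest median among all protein-coding genes as among the members, and the share of lower members under 750 nt, 8 of 17, is read against that 30%.

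Length did not order the members closely. The rank correlation of mRNA length with log2FC over the 36 was 0.37 in clean air and 0.41 after formaldehyde, beside -0.12 and -0.14 over 13822 protein-coding genes and 0.28 and 0.36 over the 1691 with a coding sequence of at most 600 nt. With the length of the coding sequence in place of the mRNA, a measure chosen after the data were seen, it was 0.61 and 0.58, beside 0.02 and -0.04 over 13487 protein-coding genes and 0.31 and 0.32 over the same 1691. All 36 points come from the same libraries, and neither value was tested. Of the 6 members with a coding sequence of 300 nt or less, 5 were lower (NDUFA1, NDUFA2, NDUFA3, NDUFB1 and NDUFC1, with NDUFB3 the exception), against 24.0% of the 275 protein-coding genes of that size. Coding size was that of the MANE Select isoform, and for NDUFC1 most counts were on an isoform without a defined coding sequence, described below. Of the 13 over 300 and up to 450 nt, 4 were lower, against 12.7%. Of the 8 over 450 and up to 600 nt, 2 were lower, against 3.69%. Of the 9 over 600 nt, none was lower, against 0.0933%. Annotated mRNA ends of several members differed between releases. NDUFB11, NDUFA1 and NDUFA2 were 1132, 766 and 775 nt by the weighted length, while their main GENCODE 44 coding isoforms are 586, 421 and 649 nt. By the latter lengths they would fall in the class under 750 nt. NDUFC1, at 705 nt and 1198 nt, would leave it. The class shares were not redone with those lengths.

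**Figure D3:**
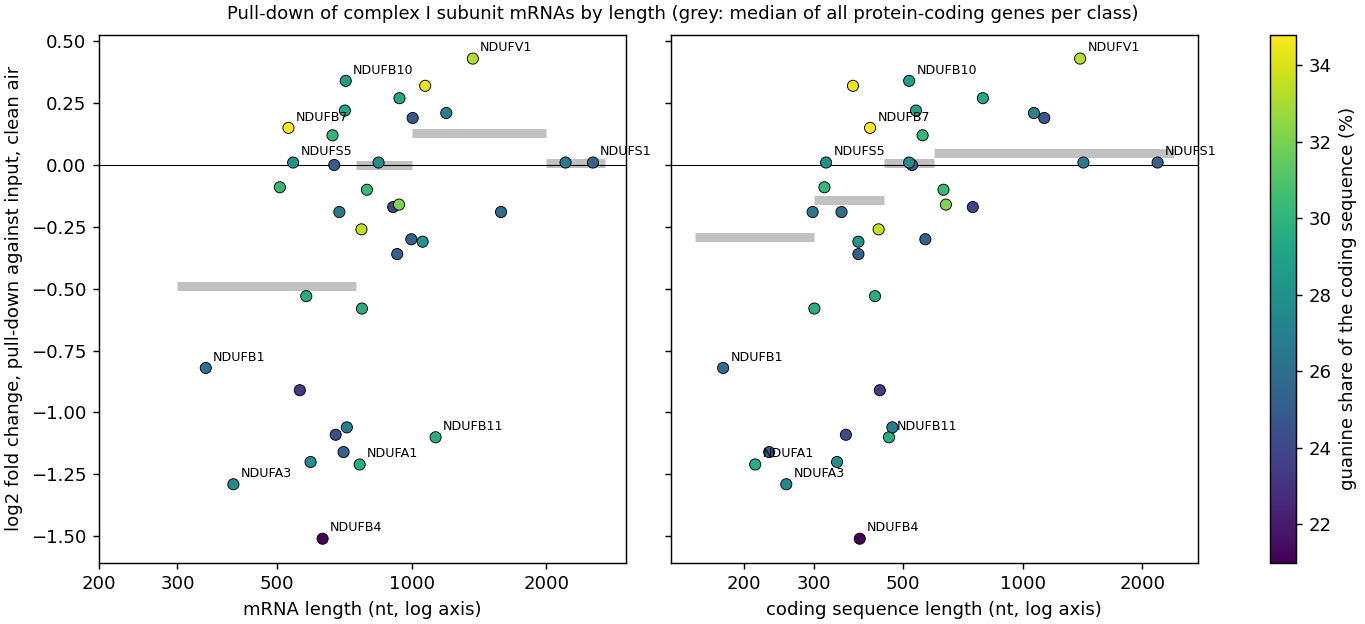
The log2 fold change of pull-down against input in clean air (y axis) is plotted against mRNA length (left) and coding sequence length (right, both log axes in nt) for the 36 subunits, coloured by the guanine share of the coding sequence, with grey bars at the median of all protein-coding genes of each length class. Points under 750 nt of mRNA spread from -1.51 (NDUFB4) to 0.34 (NDUFB10), on both sides of the class median of -0.49.

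Pairs of like length show how wide that spread was. NDUFAB1 (717 nt) and NDUFB10 (713 nt) had clean air values of -1.06 ± 0.10 and 0.34 ± 0.09, and NDUFB4 (633 nt) and NDUFB8 (666 nt) had -1.51 ± 0.10 and 0.12 ± 0.09. NDUFA12 (563 nt) and NDUFS5 (544 nt) had -0.91 ± 0.10 and 0.01 ± 0.11. These pairs were picked after the values were seen and were not tested against each other.

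Guanine content was described because 8-oxoG forms from guanine. The coding guanine share of the 11 lower members ran from 21.0% (NDUFB4) to 29.7% (NDUFA2 and NDUFB11) with a median of 26.8%, and that of the other 25 from 23.9% (NDUFV2) to 34.8% (NDUFB7) with a median of 28.2%. None of the 11 exceeded 29.7%, but the ranges overlap widely. Over the 36 the rank correlation of coding guanine share with log2FC was 0.35 in clean air and 0.22 after formaldehyde, beside 0.58 and 0.47 over 13487 protein-coding genes and 0.42 and 0.35 over the 1691 of short coding sequence. With the guanine share of the whole main coding isoform it was 0.44 and 0.30, beside 0.65 and 0.51 over 13690 protein-coding genes. With that of the 3′ untranslated region it was 0.27 and 0.21, beside 0.53 and 0.41 over 13477. None of these values was tested. Among members with a coding sequence of at most 600 nt, 4 of the 8 under 26% guanine were lower in both treatments, 4 of the 9 of 26% to 29%, and 3 of the 10 of 29% or more. The same classes held 14.8%, 11.2% and 5.5% lower genes among all protein-coding genes of that coding size. NDUFA1, printed above, was 2.31-fold lower in clean air with a guanine share of 29.6%, so a low share was not shared by all of the reduced members.

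Reads from overlapping genes were not separated by strand in the authors' counting. Of the 11 lower members, 5 (NDUFB4, NDUFA1, NDUFA12, NDUFB1 and NDUFAB1) share no exon bases with a gene on the opposite strand. Another 5 share some with a gene whose input counts were at least 20% of their own. NDUFA7 shares 68 of its 1392 exon bases with RPS28, which held 787% of its counts and had a log2FC of -1.02 in clean air. NDUFC1 shares 584 of 2994 with NAA15 (log2FC -0.15), NDUFB11 shares 246 of 3396 with RBM10 (0.29), NDUFA3 shares 150 of 2475 with TFPT (0.43), and NDUFA2 shares 54 of 1474 with IK (0.20). Of the members not called, 5 (NDUFS3, NDUFB2, NDUFB3, NDUFB8 and NDUFB9) also share exon bases with an opposite-strand gene at or over that 20%. The part of all these partners in the members' values was not tested. Pseudogenes named for a member numbered 55, for 18 members, and held at most 1.75% of the parent's input counts.

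Isoforms were tested on RSEM's estimates for each transcript, in which reads shared by isoforms are divided. Of 295 isoforms of the 36 genes, 194 were tested, and 8 were lower in clean air and 3 after formaldehyde, against 0.227% and 0.137% of all 67873 isoforms tested. None was higher, while 37 and 29 had an unadjusted p under 0.05. The 8 belonged to NDUFA7, NDUFAB1, NDUFB11, NDUFB4, NDUFC1 and NDUFC2. The RNA pool block left 0 isoforms called by edgeR, with 35 in clean air and 35 after formaldehyde below 0.05 before adjustment. Fitting 4 libraries at a time with edgeR also left 0, with 36 and 28 below 0.05 before adjustment. DESeq2 on all 8 libraries called 15 and 17 lower, and 3 and 1 higher. The isoform calls thus depended on the model, while the 11 genes were called with the block too.

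NDUFC2 is the member with lower isoforms of different size. Its isoforms of 2518, 561 and 495 nt held 36.1%, 40.7% and 23.1% of its input counts. In clean air their log2FC was -0.91 ± 0.10 (edgeR adjusted p = 0.0409), -1.08 ± 0.10 (adjusted p = 0.0275) and -1.59 ± 0.13 (adjusted p = 0.0212). After formaldehyde it was -0.70 (adjusted p = 0.112), -1.01 (adjusted p = 0.0415) and -1.44 (adjusted p = 0.0347). The longest isoform was thus lower in clean air too. The main isoforms of NDUFB4 (671 nt) and NDUFAB1 (717 nt), with 93.3% and 97.3% of their genes' counts, had clean air values of -1.61 ± 0.11 (adjusted p = 0.0132) and -1.10 ± 0.11 (adjusted p = 0.0349). The other isoforms called in clean air were those of NDUFA7 (601 nt, -1.82 ± 0.15, adjusted p = 0.0187), NDUFB11 (1388 nt, -1.31 ± 0.14, adjusted p = 0.0402) and NDUFC1 (664 nt, -1.51 ± 0.17, adjusted p = 0.047). The NDUFC1 isoform, with 77.3% of the gene's input counts, is annotated in GENCODE 44 without a defined coding sequence. The main NDUFC1 isoform with one (1198 nt, 12.1% of input counts) had 0.08 ± 0.27 in clean air and 0.06 ± 0.27 after formaldehyde. After formaldehyde the isoforms called were that of NDUFB4 (-1.43 ± 0.11, adjusted p = 0.0234) and the 561 and 495 nt isoforms of NDUFC2.

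Of the 23 genes with tested isoforms that differed over 2 times in length, NDUFS1, NDUFV1 and NDUFB9 had the most input counts. No isoform of the 3 was called. The NDUFS1 isoforms of 11819, 2631 and 2371 nt, with 19.3%, 27.1% and 34.3% of its counts, had clean air values of -0.16 ± 0.18, -0.29 ± 0.18 and 0.22 ± 0.15. The NDUFV1 isoforms of 1596 and 1512 nt had 0.35 ± 0.10 and 0.67 ± 0.15, and the main NDUFB9 isoform of 711 nt had 0.20 ± 0.09.

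Other genes of the pathway were counted from lists. Of 17 complex I assembly factors, 1 was lower in both treatments and 16 were not called, with medians of 0.09 and 0.07. The one was NDUFAF4 (832 nt, log2FC -1.17 ± 0.13, adjusted p = 0.00151 in clean air), a factor in early assembly, and NDUFAF8 (573 nt) had 0.33 ± 0.10 (adjusted p = 0.176). Of the 7 mitochondrially encoded subunits, 2 were lower in clean air and 1 after formaldehyde, with medians of -0.61 and -0.60. MT-ND3 had -1.30 ± 0.16 (adjusted p = 0.0026) and MT-ND4L had -0.83 ± 0.15 (adjusted p = 0.0249) in clean air. Each of the 7 had a log2FC below 0, as 23 of the 36 nuclear members did in clean air.

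None of 4 complex II genes was called, and SDHD (-0.47 ± 0.12, adjusted p = 0.114) and SDHA (0.26 ± 0.08, adjusted p = 0.156) had the smallest p. Of 35 nuclear genes of complexes III, IV and V, 17 were lower in each treatment, with medians of -0.54 and -0.56 and a median coding size of 336 nt, beside 436.5 nt for the complex I members. NDUFA4, once counted as a complex I subunit and now assigned to complex IV, had -1.92 ± 0.10 (adjusted p = 5.5e-05) in clean air. UQCRQ, of complex III, had -1.15 ± 0.09 (adjusted p = 0.00026). Of 14 proteasome core genes, 1 was lower (PSMB3, -0.72 ± 0.10, adjusted p = 0.00655) and 13 were not called, with PSMA2 at -0.48 ± 0.10 (adjusted p = 0.0599). None of 9 regulators of mitochondrial gene expression was called, and ESRRA (0.39 ± 0.11, adjusted p = 0.141) and PPARGC1B (-0.47 ± 0.29, adjusted p = 0.598) had the smallest p.

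**Figure D4:**
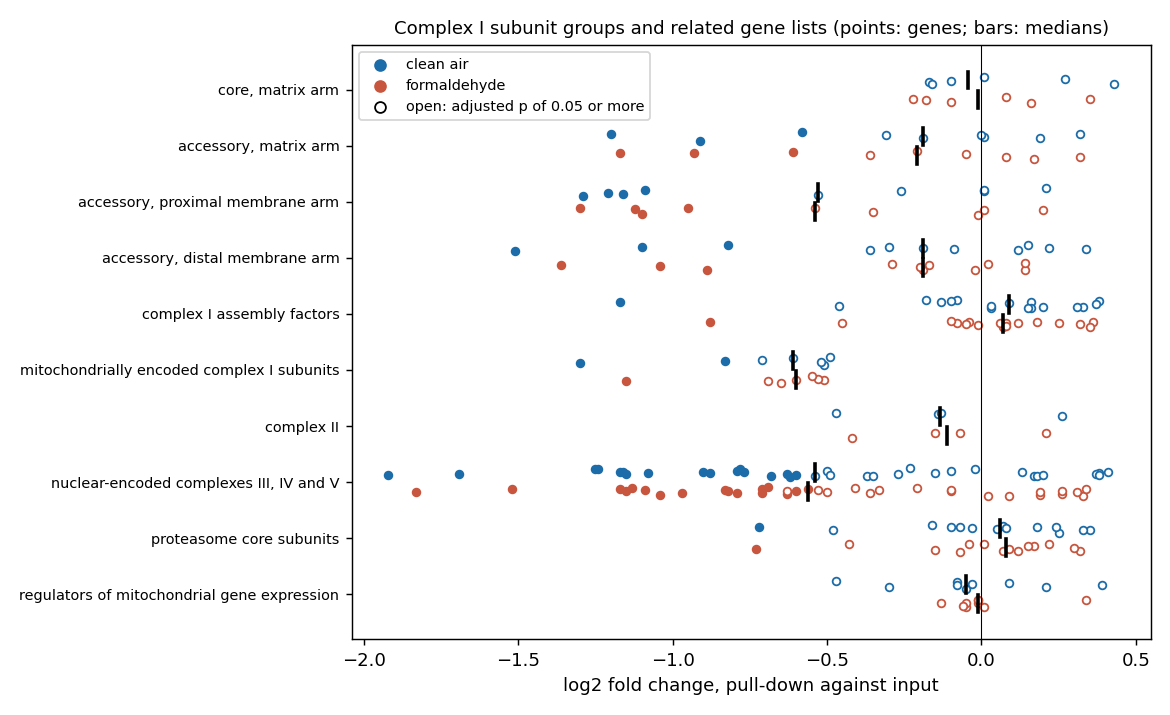
The log2 fold change of pull-down against input (x axis) is plotted for the genes (points) of 4 complex I subunit groups and 6 related lists (y axis), in clean air (blue) and after formaldehyde (red), filled where the adjusted p was under 0.05, with black bars at the medians. The core subunits lie around 0, the accessory groups extend to -1.51, and complexes III, IV and V extend to -1.92.

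The formaldehyde comparison in input asked whether the mRNA levels themselves changed 6 h after exposure. No member was called by edgeR, against 1 gene in all (0.00548%), and 0 of the 36 had an unadjusted p under 0.05. The changes were small and mostly of one sign. The log2FC was above 0 for 35 of 36 members, from 0.02 to 0.21, with NDUFV3 at -0.05, and the median was 0.10 beside 0.02 over all genes, of which 53.4% were above 0. Both FA_IN libraries lay above both CA_IN libraries for 24 of the 36, against 18.1% of all genes, and below them for 0, against 15.8%. Summed over the 36, the level was 2660 and 2648 CPM in CA_IN and 2863 and 2817 CPM in FA_IN. The members share the same 4 libraries, so their common sign is 1 observation on these libraries, and FA_IN replicate 1 was also the shallowest input library.

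The 3 members with the smallest p were NDUFA8, NDUFB10 and NDUFS3. NDUFA8, a twin-cysteine subunit of the intermembrane space, held 30.6 and 31.7 CPM in CA_IN, 34.5 and 37.3 CPM in FA_IN, 30.0 and 32.8 CPM in CA_IP, and 33.2 and 38.9 CPM in FA_IP. Its log2FC in input was 0.21 ± 0.12 (edgeR adjusted p = 0.945), with both FA_IN libraries above both CA_IN libraries. NDUFB10 and NDUFS3, whose levels are given above, each had 0.16, ± 0.09 and ± 0.10 (adjusted p = 0.945 for both), again without overlap of the groups. Each of these changes was less than 2 SE. The 6 core subunits ranged from 0.02 to 0.18, the 9 matrix accessory subunits from -0.05 to 0.20, the 9 proximal from 0.05 to 0.21, and the 11 distal from 0.02 to 0.16.

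The related lists varied in the same comparison. The median log2FC in input was 0.12 for complexes III, IV and V (34 of 35 above 0), 0.11 for the proteasome core (14 of 14 above 0), 0.15 for the mitochondrially encoded subunits (6 of 7), 0.09 for the assembly factors (13 of 17), 0.06 for complex II (4 of 4) and -0.05 for the regulators of mitochondrial gene expression (4 of 9). None of these genes was called.

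With the replicate number as a block, 1.41% of all genes were called in input and 2.08% in pull-down, and 0 members in either. DESeq2 on 8 libraries called 0 members in input, in pull-down and for the interaction.

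In the pull-down libraries, no member was called between treatments, against 0 genes in all (0%). The median log2FC was 0.09 beside -0.01 over all genes, and 31 of 36 were above 0, beside 49.0% of all genes. This median rested on single libraries: it was 0.00 without CA_IP replicate 1 (18 of 36 above 0), 0.17 without CA_IP replicate 2 (35 above 0) and 0.05 without FA_IP replicate 2 (22 above 0). Both FA_IP libraries lay above both CA_IP libraries for 13 of the 36, against 15.8% of all genes, and below them for 1, against 17.2%. NDUFC2 had the smallest p, with a log2FC of 0.21 ± 0.09 (unadjusted p = 0.036, edgeR adjusted p = 0.907), and 1 of the 36 was under 0.05 before adjustment.

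The interaction tested whether the pull-down differed with treatment. It was called for 0 of the 36 and for 0 genes in all (0%), and no member had an unadjusted p under 0.05. The median difference was -0.01, and NDUFB10 had the smallest p, with -0.19 ± 0.13 (unadjusted p = 0.181, edgeR adjusted p = 1). For the 11 lower members the 2 pull-down values lay within 0.15 of each other, as for NDUFB4 at -1.51 and -1.36. No difference between the treatments was detectable with 2 replicates a group, which does not show that they are equal.

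**Figure D5:**
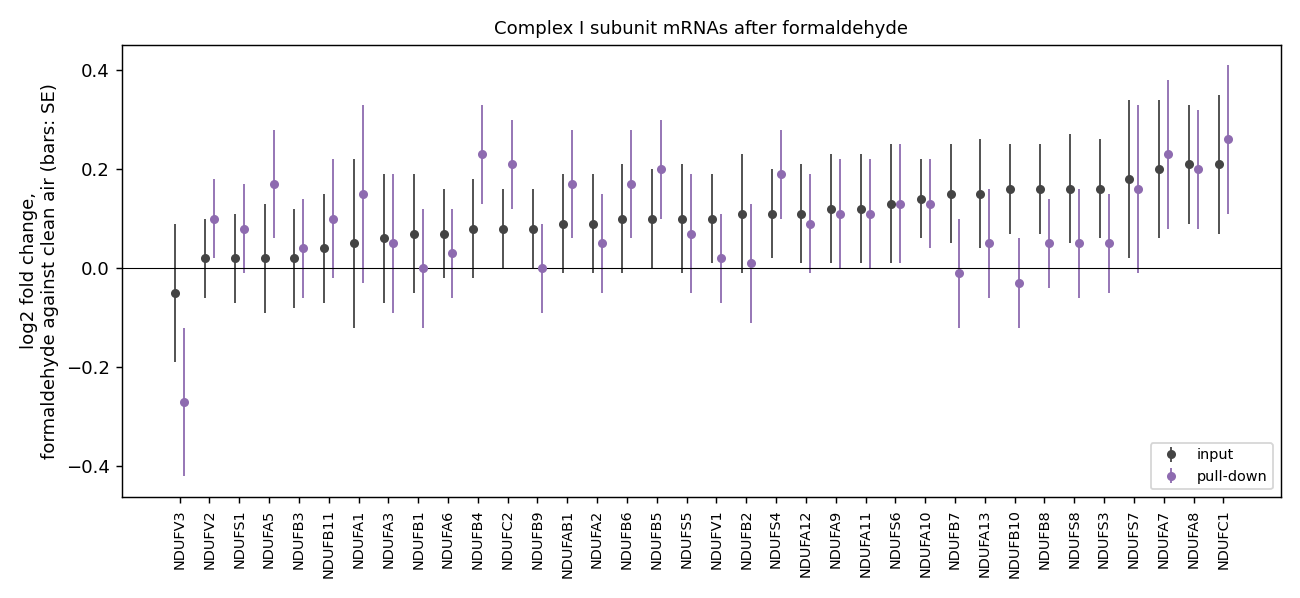
The log2 fold change of formaldehyde against clean air (y axis) is plotted for the 36 subunits (x axis, ordered by the input value) in input (dark grey) and pull-down (purple) RNA, with bars of 1 SE from edgeR. In input 35 of 36 points are above 0, none over 0.21, and no point in either fraction passed the adjusted threshold.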

How the data were processed

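Per the labels and methods, the authors trimmed reads with cutadapt, aligned them to GRCh38 with STAR 2.6.0a and quantified Ensembl 94 transcripts with RSEM 1.2.25. They deposited expected counts (not normalized) and TPM per transcript for 8 libraries. Their DESeq2 comparison tables were not used. The study's methods and the labels' antibody field name antibody clone 15A3, while the labels' extraction protocol names another.

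Expected counts were summed by gene and rounded. The 18242 genes with at least 10 counts in at least 2 libraries (67873 transcripts likewise) were fitted over 4 group means with edgeR 4.0.16 (TMM, quasi-likelihood; R 4.3.3), with Benjamini-Hochberg adjustment over all of them and a limit of 0.05. The fit was also run on simulated data, drawn with independent libraries and a common dispersion for all genes. That setting does not cover the shared deviation of same-numbered libraries given below. DESeq2 1.42.0 was an alternative. Same-numbered libraries deviated together (r of 0.366 to 0.628 over 6 pairs of groups). Names, positions and coding sequences are from GENCODE 44.

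The members, lists and tests were chosen with earlier results of these data known. Full values are given for the 10 largest called pull-down changes, the 3 shortest and 3 longest mRNAs, the smallest p for formaldehyde, the 3 highest and 3 lowest input levels, the 6 core subunits, called isoforms and, from each other list, the 2 smallest p in clean air. Others were named after their values were seen.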

Additional observations from a re-analysis of the deposited data

How the results depend on the processing

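The counts of lower members were within 1.5 times of 11 under every alternative that kept both replicates of each group: 10 to 16 in clean air and 11 to 15 after formaldehyde. Without one library the count was 8 to 11 in clean air, 6 to 11 after formaldehyde and 6 to 11 in both. The low values were 6 without FA_IN replicate 1, which lost NDUFA1, NDUFA2, NDUFA7, NDUFB1 and NDUFC1, and 7 without FA_IP replicate 1, which lost NDUFA1, NDUFA2, NDUFA7 and NDUFB1. NDUFA11 was added by DESeq2 on 8 or 4 libraries, effective length offsets and no filter in both treatments, and in clean air by RLE, both other TMM gene sets and a mean count of at least 50; the blocks also added NDUFA6 and NDUFB6 in both, NDUFA13 and NDUFB5. NDUFA2 was lost with edgeR on the 4 clean air libraries. Library size in place of TMM gave 6 higher and 11 lower members in clean air and 1 higher and 11 lower after formaldehyde; it moved the members' medians to -0.03 and -0.02 and those of all genes to 0.16 and 0.17, so that relative to all genes the members stayed at -0.20. With no filter, or with DESeq2 on 8 libraries, 1 member was higher in clean air (NDUFV1). The calls for formaldehyde in input, formaldehyde in pull-down and the interaction stayed at 0 members in each setting run for them, the replicate block included. The RNA pool block was run for the interaction but not for formaldehyde, and the fits on 4 libraries not for the interaction.

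The median formaldehyde change in input was 0.11 with DESeq2 on 8 libraries and with RLE, 0.09 with DESeq2 or edgeR on 4 libraries, 0.08 with TMM from nuclear protein-coding genes, effective length offsets, a mean count of at least 50 or no filter, 0.06 with library size, and 0.07 to 0.10 without one library. Without one library the pull-down medians ran from -0.24 to -0.13 in clean air and from -0.21 to -0.15 after formaldehyde, and the rank correlation with length from 0.32 to 0.40 and from 0.37 to 0.47. Coding length gave 0.61 and 0.58 and coding guanine share 0.22 after formaldehyde. The lower isoforms were 13 and 11 with no filter, 15 and 17 with DESeq2, 9 after formaldehyde with a mean count of at least 50, 5 after formaldehyde with the replicate block, and 0 and 0 with the RNA pool block or edgeR on 4 libraries.

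With 2 replicates a group, changes of the size seen in input were not called, and whether depth limited this was not tested. In the main fit, p-values rest on the spread within duplicates, pooled over the 4 groups and moderated toward that of other genes. That fit took input and pull-down of one RNA pool as independent.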
